A study of Mus musculus with 16 samples.

Results

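The integrin and laminin chains comprised 35 genes, 25 for integrin chains (17 alpha and 8 beta) and 10 for laminin chains. They were chosen by name as families, and every non-control probe whose RefSeq accession belonged to one of them was taken. The array carried 44 such probes for 33 of the 35 genes, among 21154 named genes in all. No probe matched Itga10 or Itgae. Of the 33 genes, 23 could be tested (17 integrin and 6 laminin chains), because they had a probe that was well above background throughout at least 1 group. This filter keeps genes that are high in only 1 group, so the tested members are not all members.

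Laminins are trimers of an alpha, a beta and a gamma chain, secreted into basement membranes, where they polymerise and bind collagen IV through nidogen. Integrins are alpha-beta pairs in the cell membrane that bind laminins, collagens or proteins with an RGD motif outside the cell and connect them to actin through talin, kindlin and vinculin. Laminin-111, made of the Lama1, Lamb1 and Lamc1 products, is the first laminin of the mouse embryo and is made in large amounts by primitive and parietal endoderm, and laminin-511 holds a Lama5 chain. The integrin alpha6beta1 is a main laminin receptor of mouse embryonic stem cells (mESCs).

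Gene expression was measured in total RNA of mESCs on 16 one-colour Agilent arrays in 6 groups. J1 cells are wild-type, those of the TKO line have no functional Dnmt1, Dnmt3a and Dnmt3b, the DNA methyltransferase genes, and 3B3l cells (3B3-3l in the labels) lack Dnmt3a and Dnmt3b and carry exogenous, constitutively expressed Dnmt3b and Dnmt3l. Each line was grown in serum medium with 15% fetal calf serum and 500 U/ml of leukaemia inhibitory factor (LIF), or for 2 weeks in 2i, a serum-free medium with 1000 U/ml LIF, 1 µM of the MEK inhibitor PD0325901 and 3 µM of the GSK3 inhibitor CHIR99021. All 6 groups thus received LIF, and 2i differed from serum in the basal medium and the LIF dose as well as in the inhibitors. There were 4 arrays for J1-serum, 3 each for J1-2i and TKO-2i, and 2 each for TKO-serum, 3B3l-serum and 3B3l-2i. By the study's methods J1 in serum was grown on inactivated SNLP feeder cells and the other lines feeder-free on gelatin, so feeders cannot be told apart from the J1-serum group. The labels do not say whether replicates were separate cultures, so p-values measure the spread between these arrays, which may be technical.

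Levels are log2 signal minus the 75th percentile of the array, written as log2 levels below, and a difference of 1 is 2-fold. They compare 1 probe between arrays and never one gene with another. The share of spots well above background ranged from 39.5% to 48.8%. Dnmt1 and Dnmt3a were lower in TKO-serum (-1.67 and -5.00) than in J1-serum (1.81 and 0.63), and Dnmt3b in 2i read 5.82 in 3B3l and 0.63 in J1, in the direction of the labels. All 10 mESC markers were well above background in every group. J1-serum stood apart in the summed signal of markers of other cell types. On all its arrays, 12 of 15 primitive and parietal endoderm genes and 13 of 20 fibroblast genes were well above background. In TKO-serum these counts were 7 and 11 and in 3B3l-serum 6 and 12, so the fibroblast count was close in the 3 serum groups. Summed over the list and given in units of the 75th percentile of the array, endoderm markers reached 44.3 to 54.9 in J1-serum, 5.83 to 6.37 in TKO-serum, 4.06 to 4.26 in 3B3l-serum and 2.15 to 3.29 over the 3 groups in 2i. Fibroblast markers reached 62.7 to 74.8, 15.5 to 16.3, 40.8 to 41.3 and 2.96 to 5.2 in the same order. In bulk RNA, more cells of a type and more RNA per cell cannot be told apart. The arrays lay on 3 slides, and all 4 arrays of 3B3l lay on slide 3 with J1-serum replicate 1 as the only array of another line. With slide as a block, comparisons of 3B3l with J1 therefore take their slide 3 correction from that array alone.

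**Figure D1:**
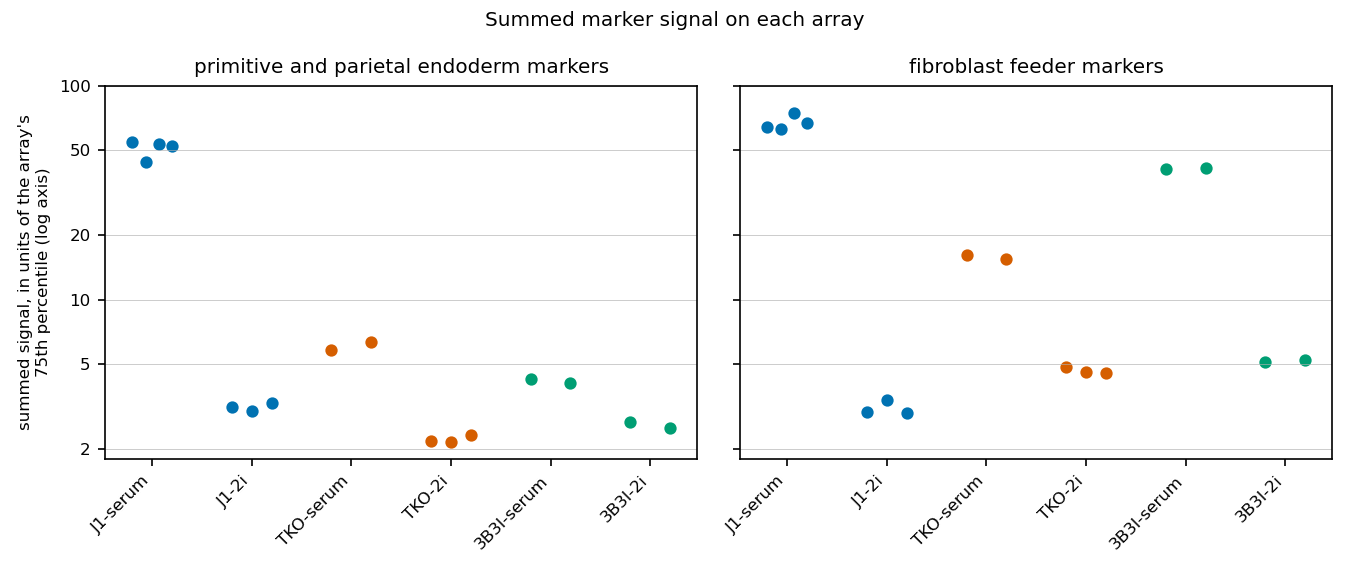
Summed signal of the endoderm and fibroblast marker lists on each array (points, coloured by line; log axis, in units of the 75th percentile of the array). The J1-serum arrays sit at 44.3 to 54.9 for endoderm and 62.7 to 74.8 for fibroblast markers, above every other array.

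The first question was which chains responded to 2i in each line. A call needed an adjusted p (limma, Benjamini-Hochberg over all probes) no higher than 0.05 and a difference of 2-fold or more. In J1, 8 of 23 tested members were called, against 22.6% of all tested genes. Of these, 7 fell (Lamb1, Lama1, Itga2b, Itga3, Itga7, Itgb2 and Itgb3), against 12.6% of all genes, and 1, Itgal, rose, against 10.1%. In TKO, 5 of 23 were called against 15.8% of all genes, with Lamb1, Itga3, Itga9 and Itga2b lower (9.08% of all genes) and Lamb2 higher (6.72%). In 3B3l, 7 of 23 were called against 13.6%. All 7 were lower (Lamb1, Itga3, Itga7, Itga8, Itga9, Itgb1 and Itgb5), where 7.95% of all genes were lower and 5.62% higher. The median log2 difference of the members was -0.46, -0.24 and -0.44 in J1, TKO and 3B3l, beside 0.05, 0.07 and 0.00 over all tested genes. Lamb1 and Itga3 fell in all 3 lines, a pattern held by 3.58% of all tested genes, and no member rose in all 3 lines, against 2.03%.

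**Figure D2:**
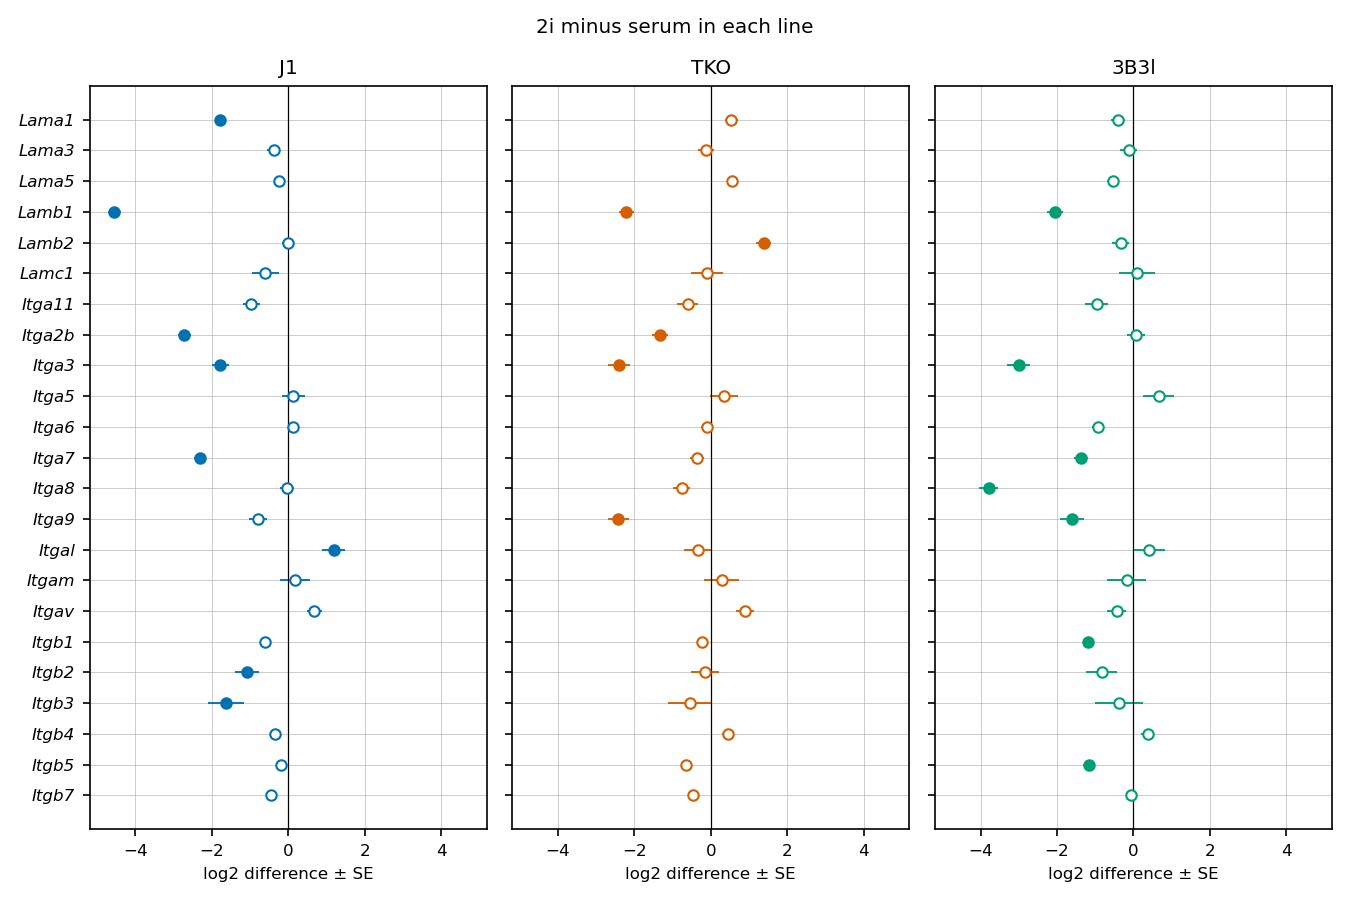
Log2 difference of 2i minus serum for the 23 tested members in each line (points, with SE as bars; filled where called). Lamb1 and Itga3 lie to the left in every panel, and Lama1 is called in J1 alone; differences that rest on groups below background, such as Itga2b in TKO, are marked in the text.

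Lamb1, the beta chain of laminin-111 and laminin-511, had the largest fall in J1 among members measured above background in both media. Its log2 level was 5.22, 4.99, 5.39 and 5.47 on the J1-serum arrays and 0.81, 0.34 and 1.01 on the J1-2i arrays. It was 3.67 and 3.33 in TKO-serum and 1.38, 1.28 and 1.23 in TKO-2i. In 3B3l it was 3.07 and 2.95 in serum and 1.00 and 0.89 in 2i. Serum and 2i arrays did not overlap in any line, and the probe was well above background on all 16 arrays. Lamb1 fell by 4.55 ± 0.16 (SE, adjusted p = 2.89e-10) in J1, which is 23.4-fold. It fell by 2.21 ± 0.19 (SE, adjusted p = 1.72e-06) in TKO and it fell by 2.06 ± 0.21 (SE, adjusted p = 1.08e-05) in 3B3l. The lines differed in serum, where the log2 difference from J1 was -1.77 for TKO (adjusted p = 7.54e-06) and -2.26 for 3B3l (adjusted p = 8.01e-07). In 2i the differences from J1 were 0.57 and 0.23, neither of them called. The response was smaller than that of J1 by 2.34 in TKO (adjusted p = 2.42e-05) and by 2.49 in 3B3l (adjusted p = 2.03e-05).

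Lama1, the alpha chain of laminin-111, fell with 2i only in J1 among the 3 lines. J1-serum arrays read 5.13, 4.75, 4.95 and 4.97 and J1-2i arrays 3.21, 2.95 and 3.37. TKO-serum read 2.81 and 2.83 and TKO-2i 3.52, 3.28 and 3.29, so the 2i arrays were the higher ones. 3B3l-serum read 2.09 and 2.55 and 3B3l-2i 1.96 and 1.89. Lama1 fell by 1.78 ± 0.14 (SE, adjusted p = 2.65e-07) in J1, whereas the differences were 0.54 ± 0.16 (SE) in TKO and -0.40 ± 0.18 in 3B3l, both under 2-fold. The responses of TKO and 3B3l differed from that of J1 by 2.32 (adjusted p = 6.91e-06) and 1.38 (adjusted p = 0.000571). The difference from J1 in serum was -2.13 for TKO (adjusted p = 3.95e-07) and -2.63 for 3B3l (adjusted p = 5.62e-08). In 2i Lama1 was lower in 3B3l than in J1 (-1.25, adjusted p = 8.49e-05) but not in TKO (0.18, adjusted p = 0.403).

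In J1 with 2i, and in serum between the lines, Lama1 and Lamb1 moved with the marker lists of other cell types. Lamb1 did so with 2i in TKO and 3B3l too, whereas Lama1 differed by 0.54 in TKO, against the direction of the lists, and was not called in 3B3l. In J1, 11 of 12 tested endoderm markers and 13 of 14 tested fibroblast markers fell with 2i. In TKO, 8 endoderm and 7 fibroblast markers fell. In 3B3l the numbers were 5 and 8, with 1 fibroblast marker higher. Gata6, a transcription factor that defines primitive endoderm, was at least 29.7-fold lower in J1-2i than in J1-serum. In serum, 11 endoderm and 12 fibroblast markers were lower in TKO than in J1, and in 3B3l all 12 tested endoderm and 9 fibroblast markers were lower and 1 fibroblast marker higher. What part of the laminin differences, or of the integrin, ligand and adaptor differences below, went with these marker signals was not tested. In 3B3l, where Lamb1 also fell, endoderm markers summed to 4.06 to 4.26 in serum and 2.5 to 2.68 in 2i, and fibroblast markers to 40.8 to 41.3 in serum and 5.12 to 5.2 in 2i.

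**Figure D3:**
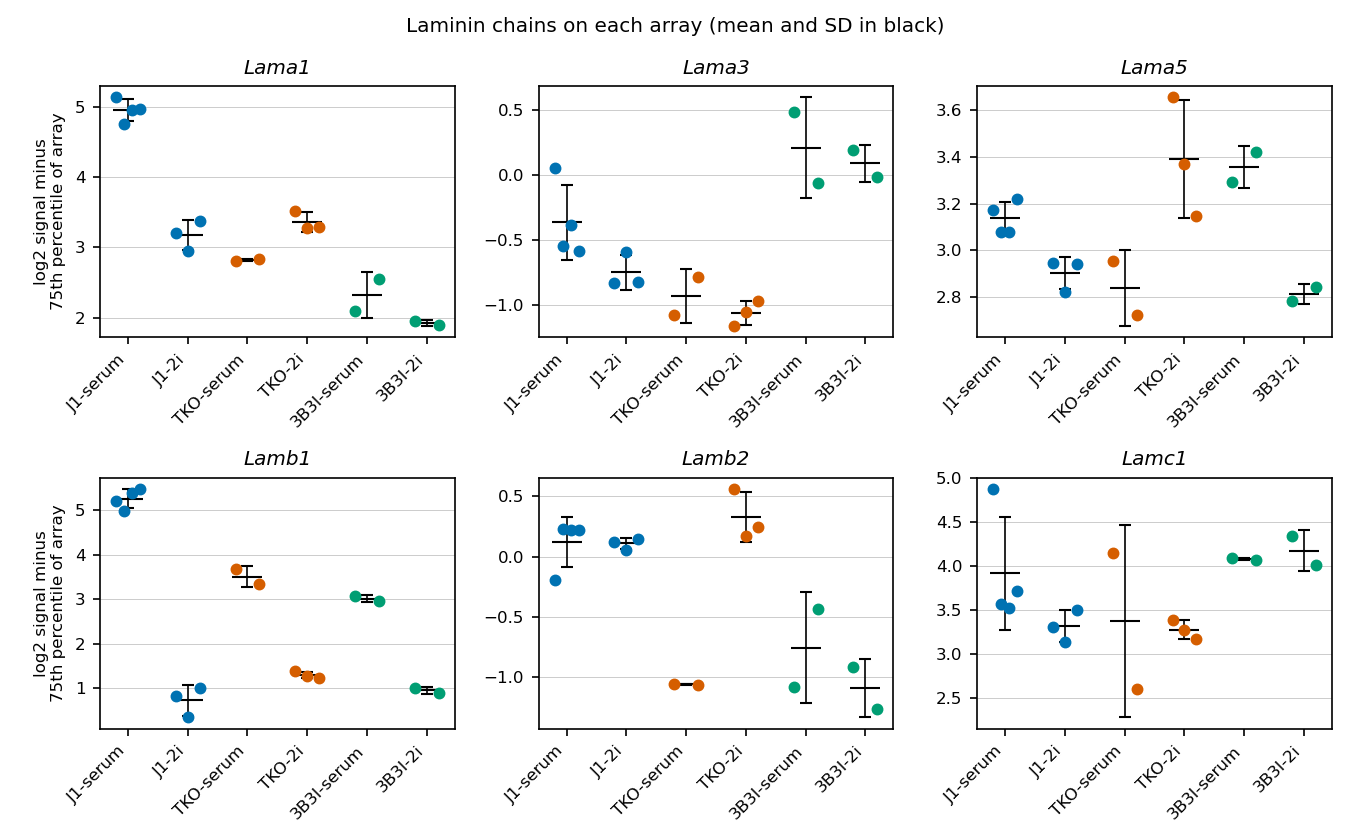
Log2 levels of the 6 tested laminin chains on each array (filled points well above background, open points not; black bars, mean and SD; the y axis differs between panels). Lamb1 is high in the 3 serum groups and highest in J1-serum, where it lies between 4.99 and 5.47.

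Lamb2, the beta chain of laminins found in muscle and kidney, was called with 2i in TKO and in neither other line. Its level was -1.05 and -1.06 in TKO-serum and 0.56, 0.17 and 0.24 in TKO-2i, -0.19, 0.23, 0.22 and 0.22 in J1-serum and 0.13, 0.06 and 0.15 in J1-2i. The 3B3l arrays read -1.08 and -0.43 in serum and -0.92 and -1.26 in 2i. TKO-serum was thus the low group of that line, without overlap, and TKO-2i overlapped J1-serum but not J1-2i. The rise in TKO was 1.39 ± 0.20 (SE, adjusted p = 0.000129) and exceeded the J1 response by 1.39 (adjusted p = 0.00152). Lamb2 was lower in TKO than in J1 in serum (-1.18, adjusted p = 0.000259) and lower in 3B3l than in J1 in 2i (-1.20, adjusted p = 0.000495), the latter not called with slide as a block (-0.79).

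Lamc1, the gamma chain of laminin-111, did not pass the test in any comparison of the main fit and is shown because it completes that trimer. Its levels were 4.87, 3.57, 3.52 and 3.71 in J1-serum and 3.31, 3.13 and 3.50 in J1-2i. They were 4.15 and 2.60 in TKO-serum and 3.38, 3.27 and 3.17 in TKO-2i. 3B3l-serum arrays read 4.09 and 4.07 and 3B3l-2i arrays 4.34 and 4.01. J1-serum replicate 1 and all 3B3l arrays, the arrays of slide 3, lay at 4.01 or above, and TKO-serum replicate 1 was the only array of the other slides to do so. The 2i differences were -0.60 ± 0.36, -0.10 ± 0.43 and 0.09 ± 0.47 (SE) in J1, TKO and 3B3l. The TKO values depend on which TKO-serum array is used, as these read 4.15 and 2.60. Without TKO-serum replicate 1, Lamc1 was at least 2-fold lower in TKO-serum than in J1-serum. Lama5, the alpha chain of laminin-511, and Lama3, an alpha chain of epithelial laminins, were also called in none of the comparisons. Lama5 differed with 2i by -0.24, 0.55 and -0.54 in the same order, and Lama3 by -0.38, -0.13 and -0.12.

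Among the laminin receptors, Itga3, the alpha chain of alpha3beta1, fell in every line with 2i. J1-serum arrays read -1.07, -1.61, -1.96 and -1.79 and J1-2i arrays -3.42, -3.41 and -3.32, where none was well above background. TKO-serum arrays read -1.68 and -2.69 and TKO-2i arrays -4.57, -4.49 and -4.71, again not above background. 3B3l-serum was the highest group at 1.30 and 1.52, and 3B3l-2i read -1.48 and -1.70. Itga3 was at least 2.1-fold lower in J1-2i (adjusted p = 3.36e-05) and at least 1.28-fold lower in TKO-2i (adjusted p = 2.12e-05) than in serum. In 3B3l, where both groups were measured, it fell by 3.00 ± 0.30 (SE, adjusted p = 1.02e-05), a 7.99-fold difference. Against J1, 3B3l was higher in serum by 3.02 ± 0.26 (SE, adjusted p = 1.48e-06), and at least 2.13-fold higher in 2i (adjusted p = 0.000321). Within slide 3, against J1-serum replicate 1 as a single J1 array, the serum difference was 2.48, a value whose test takes its spread from the 3B3l arrays alone. With slide as a block the 2i difference was 1.08 and not called. The response of 3B3l minus that of J1 (-1.22, adjusted p = 0.0313) rested on the J1-2i arrays below background, so the responses are given no order, and it was not called in most leave-one-out fits, with the replicate number as a block, or without a filter on dim probes.

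Lamb1 and Itga3 are shown with the 250 bases before their RefSeq start sites (GRCm38.p6), because they fell in all 3 lines and the lines differ in DNA methyltransferases. Capitals mark each CpG, the dinucleotide these enzymes methylate. Lamb1 lies at chr12:31265043-31265292 on the plus strand and Itga3, by the outer of its 2 start sites, at chr11:95076715-95076964 on the minus strand.
Lamb1: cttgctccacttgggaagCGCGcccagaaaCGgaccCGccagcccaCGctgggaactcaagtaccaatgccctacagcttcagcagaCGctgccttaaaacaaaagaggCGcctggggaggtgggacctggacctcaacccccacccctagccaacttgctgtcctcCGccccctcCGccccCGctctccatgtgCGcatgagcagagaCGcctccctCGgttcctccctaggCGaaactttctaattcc
Itga3: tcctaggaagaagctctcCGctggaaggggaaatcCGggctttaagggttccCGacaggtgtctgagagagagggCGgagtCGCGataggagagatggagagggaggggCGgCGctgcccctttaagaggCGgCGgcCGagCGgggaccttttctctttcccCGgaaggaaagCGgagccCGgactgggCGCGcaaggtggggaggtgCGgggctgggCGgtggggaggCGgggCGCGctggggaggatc
The Lamb1 window held 14 CpGs and the Itga3 window 22, where the median was 6 over 32536 promoters of the same length and 11 over the 23 member genes with a sequence. Both strands were searched for 8 short motifs, none of which contains another. Both windows held the GC box GGGCGG, as did 33.0% of all promoters, and it was present 2 times in Lamb1 and 3 times in Itga3. Lamb1 also held CCAAT, found in 33.8% of all promoters. Neither window held the AP-1 motif TGANTCA (6.73% of all promoters), the TCF/LEF motif CTTTGAT (3.21%), the STAT motif TTCCNGGAA (0.919%), the GATA motif AGATAA (9.97%), the TEAD motif GGAATG (12.6%) or TATAAA (12.3%). Methylation of these windows was not measured on the arrays.

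Itga6, the alpha chain of alpha6beta1 and alpha6beta4, was called in none of the 7 comparisons of 2 groups, as every difference was under 2-fold. It is shown for its role as a laminin receptor of mESCs. Its levels were 3.59, 3.25, 3.23 and 3.48 in J1-serum and 3.51, 3.36 and 3.69 in J1-2i. They were 3.06 and 2.80 in TKO-serum and 2.95, 2.81 and 2.70 in TKO-2i. 3B3l-serum arrays read 4.17 and 4.42 and 3B3l-2i arrays 3.30 and 3.43, without overlap. The 2i differences were 0.13 ± 0.13, -0.11 ± 0.15 and -0.93 ± 0.16 (SE), and the response of 3B3l minus that of J1 was -1.06 (adjusted p = 0.00214). That difference was under 2-fold without J1-2i replicate 3 (-0.98), 3B3l-serum replicate 2 (-0.93) or 3B3l-2i replicate 1 (-0.99). The limit on adjusted p alone was passed by 3B3l with 2i (adjusted p = 0.00105) and by 3B3l-serum against J1-serum (0.90, adjusted p = 0.000208). TKO was also lower than J1 in serum (-0.46, adjusted p = 0.0207) and in 2i (-0.70, adjusted p = 0.00238), again under 2-fold.

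Itgb1, the beta chain shared by most laminin, collagen and fibronectin receptors, was well above background on all 16 arrays. J1-serum arrays read 3.21, 3.39, 3.32 and 3.32, J1-2i arrays 2.60, 2.77 and 2.70 and TKO-serum arrays 2.14 and 2.44. TKO-2i arrays read 2.04, 2.06 and 2.05, 3B3l-serum arrays 2.70 and 2.71 and 3B3l-2i arrays 1.53 and 1.52. J1-serum was the highest group and 3B3l-2i the lowest, and neither overlapped another group. Itgb1 fell by 1.18 ± 0.11 (SE, adjusted p = 6.66e-06) in 3B3l with 2i, and the differences in J1 and TKO were -0.62 ± 0.09 and -0.24 ± 0.10 (SE), both under 2-fold. Itgb1 was lower than in J1 in TKO-serum (-1.02, adjusted p = 4.45e-06) and in 3B3l-2i (-1.17, adjusted p = 4.4e-06). The TKO-serum difference sat at the 2-fold limit and was -0.87 without TKO-serum replicate 1 and -0.99 without J1-serum replicate 2. A second Itgb1 probe gave -0.89 for 3B3l with 2i, under 2-fold, and -1.01 for 3B3l against J1 in serum, which was called, where the first probe gave -0.60.

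Itga7, the laminin-binding alpha chain of muscle, was highest in J1-serum at -0.32, -0.47, -0.52 and -0.65. J1-2i arrays read -2.93, -2.67 and -2.82, none well above background. TKO arrays read -2.20 and -2.12 in serum and -2.36, -2.50 and -2.70 in 2i, the latter not above background. 3B3l-serum arrays read -1.24 and -0.96 and 3B3l-2i arrays -2.18 and -2.76, of which again none was above background. Endoderm and fibroblast markers fell with 2i in J1 and 3B3l in the numbers given above, and their part in the falls of Itga7 was not tested. Itga7 was at least 4.41-fold lower with 2i in J1 (adjusted p = 3.68e-08) and at least 2.22-fold lower in 3B3l (adjusted p = 0.000137). Under another background correction the 3B3l difference was -0.97, smaller than that bound and not called, and it was not called by a t-test in place of limma either. TKO-serum was lower than J1-serum (-1.67, adjusted p = 4.94e-06), and the TKO response differed from that of J1 by 1.96 (adjusted p = 4.35e-05), with 2i groups that give only a bound. Itgb4, the partner of alpha6 in hemidesmosomes, read 0.29, 0.81, 0.77 and 0.73 in J1-serum and -0.48 and -0.37 in TKO-serum, a called difference of -1.08 (adjusted p = 8.33e-05) that was -0.92 under another background correction. Its other arrays read 0.33, 0.25 and 0.36 in J1-2i, 0.07, 0.10 and -0.09 in TKO-2i, -0.18 and -0.26 in 3B3l-serum and 0.34 and -0.03 in 3B3l-2i.

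**Figure D4:**
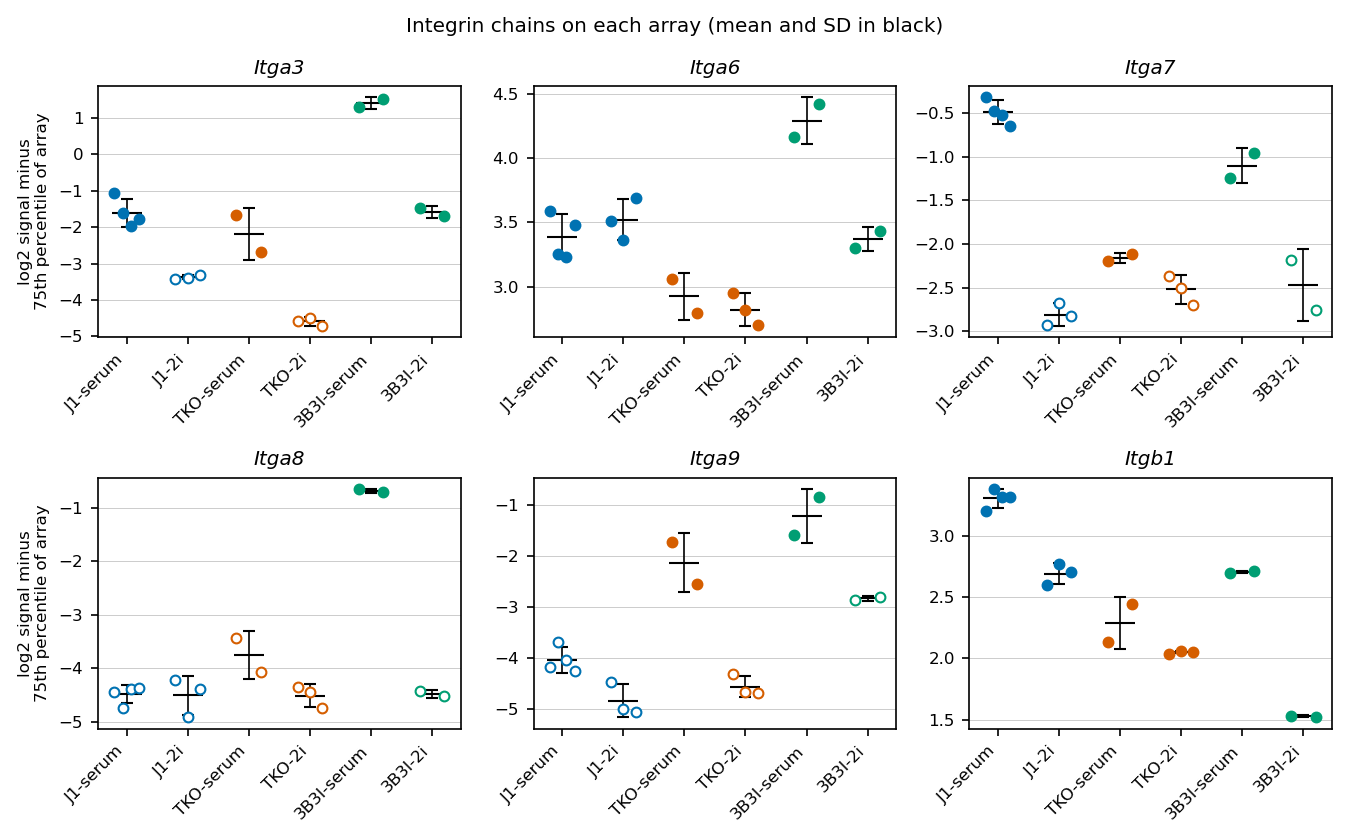
Log2 levels of 5 integrin alpha chains and Itgb1 on each array (filled points well above background, open points not; black bars, mean and SD; the y axis differs between panels). Itga8 is above background in 3B3l-serum alone, at -0.66 and -0.71, and Itga9 in TKO-serum and 3B3l-serum.

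Itga8, the alpha chain of the nephronectin receptor alpha8beta1, was above background in a single group. 3B3l-serum arrays read -0.66 and -0.71. All other arrays lay between -4.92 and -3.43, and none was well above background. Itga8 was at least 3.11-fold lower in 3B3l-2i than in 3B3l-serum (adjusted p = 1.78e-07) and at least 3.72-fold higher in 3B3l-serum than in J1-serum (adjusted p = 3.83e-08). On slide 3, which holds all 3B3l arrays, the single J1-serum array read -4.45, again below background.

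Itga9, which pairs with beta1 to bind tenascin and osteopontin, was above background in the serum groups of the 2 mutant lines. TKO-serum arrays read -1.73 and -2.55 and 3B3l-serum arrays -1.59 and -0.85. J1-serum arrays read -4.17, -3.68, -4.04 and -4.26 and J1-2i arrays -4.46, -4.99 and -5.05, none above background. TKO-2i arrays read -4.31, -4.67 and -4.69 and 3B3l-2i arrays -2.87 and -2.80, also none. Against J1-serum, Itga9 was at least 1.36-fold higher in TKO-serum (adjusted p = 0.000108) and at least 2.57-fold higher in 3B3l-serum (adjusted p = 3.29e-06). With 2i its level dropped at least 1.32-fold in TKO (adjusted p = 2.55e-05) and at least 2.15-fold in 3B3l (adjusted p = 0.00186). Under another background correction the TKO-serum difference from J1-serum was 0.99 and not called. Both comparisons in serum share the J1-serum arrays, which were the ones grown on feeders.

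The windows of Itga8 and Itga9 are shown because both genes were higher in 3B3l-serum than in J1-serum. They are given as above, with CpGs in capitals, for chr2:12301945-12302194 on the minus strand and chr9:118711442-118711691 on the plus strand.
Itga8: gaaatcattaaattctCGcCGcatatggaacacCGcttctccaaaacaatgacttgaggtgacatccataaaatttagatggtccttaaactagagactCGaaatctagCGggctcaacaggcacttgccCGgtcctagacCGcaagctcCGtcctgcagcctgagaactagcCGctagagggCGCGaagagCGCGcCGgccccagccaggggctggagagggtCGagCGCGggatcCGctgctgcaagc
Itga9: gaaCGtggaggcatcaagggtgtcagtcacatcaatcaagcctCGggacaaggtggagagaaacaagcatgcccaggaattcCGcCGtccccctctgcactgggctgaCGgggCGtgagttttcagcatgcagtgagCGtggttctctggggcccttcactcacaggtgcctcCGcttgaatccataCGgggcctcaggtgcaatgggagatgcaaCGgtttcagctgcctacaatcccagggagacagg
The Itga8 window held 18 CpGs and the Itga9 window 10. Neither held any of the 8 motifs.

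Further chains of receptors that bind RGD motifs, as alpha8beta1 also does, are Itgav, Itgb5, Itgb3, Itga5 and Itga2b, and each was called in at least 1 comparison. Itgav, the alpha chain of the vitronectin receptors, read 0.99, 1.20 and 1.42 in J1-2i and -0.24 and -0.18 in 3B3l-2i, a called difference of -1.42 (adjusted p = 0.000486). A second Itgav probe was at least 1.34-fold lower in the same comparison, and with slide as a block the first gave -1.16 and under another background correction -0.82, both uncalled. The other arrays read 0.32, 0.42, 0.30 and 1.03 in J1-serum, -0.31 and 0.37 in TKO-serum, 0.87, 0.93 and 0.97 in TKO-2i and 0.12 and 0.32 in 3B3l-serum. The 2i response of 3B3l minus that of J1 was -1.12 (adjusted p = 0.0201), and each line's own response was under 2-fold. That difference was not called without 3B3l-serum replicate 2 (-1.02) or 3B3l-2i replicate 1 (-1.09).

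Itgb5, a beta partner of alphav, fell with 2i in 3B3l. Its levels were 2.13 and 2.45 in 3B3l-serum and 1.11 and 1.17 in 3B3l-2i, without overlap. J1-serum arrays read 1.94, 1.90, 1.91 and 1.89 and J1-2i arrays 1.80, 1.57 and 1.77, with 2.12 and 1.66 in TKO-serum and 1.38, 1.21 and 1.15 in TKO-2i. Itgb5 fell by 1.15 ± 0.16 (SE, adjusted p = 0.000128) in 3B3l, which was -0.99 without 3B3l-serum replicate 2, and the differences in J1 and TKO were -0.20 and -0.65. Itgb3, the other common partner of alphav, read -0.99, -1.65, -2.07 and -1.76 in J1-serum and -4.70, -2.43 and -2.60 in J1-2i. Its called difference of -1.62 (adjusted p = 0.0133) rested on J1-2i replicate 1, the only J1-2i array below background, and the difference was -0.90 and not called without it. The TKO arrays read -1.76 and -2.37 in serum and -2.76, -2.44 and -2.61 in 2i, and the 3B3l arrays -2.21 and -1.98 and -1.90 and -3.05.

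Itga5, the alpha chain of the fibronectin receptor alpha5beta1, was well above background on all TKO and 3B3l arrays, on 2 of 4 J1-serum arrays and on 2 of 3 J1-2i arrays. It read -1.34, -2.34, -2.20 and -2.27 in J1-serum, -2.15, -1.82 and -1.74 in J1-2i, -2.0 and -2.43 in TKO-serum and -1.04, -2.26 and -2.29 in TKO-2i. The 3B3l arrays read -1.63 and -1.45 in serum and -1.03 and -0.72 in 2i. The difference between 3B3l-2i and J1-2i (1.03, adjusted p = 0.0421) was 0.10 and not called with slide as a block, and it was also lost in most leave-one-out fits. Itga2b, the alpha chain of the platelet fibrinogen receptor, was above background in J1-serum alone, at -2.36, -1.85, -2.30 and -1.81. The J1-2i arrays read -4.56, -4.81 and -5.03, the TKO arrays -3.69 and -3.10 in serum and -4.60, -4.76 and -4.81 in 2i, and the 3B3l arrays -4.25 and -4.14 and -4.12 and -4.14. Itga2b was at least 1.51-fold lower in J1-2i (adjusted p = 5.45e-08), at least 1.64-fold lower in TKO-serum (adjusted p = 0.000194) and at least 1.13-fold lower in 3B3l-serum (adjusted p = 2.99e-06) than in J1-serum. The TKO-serum difference was -0.82 and not called under another background correction. The called Itga2b difference with 2i in TKO lay between groups below background and gives no fold. Lower endoderm and fibroblast markers accompanied each of these falls from J1-serum, and their part was not tested.

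Among the leukocyte integrin chains, Itgal and Itgb2 lay near background and were called in at least 1 comparison. The main Itgam probe and the Itgb7 probe were well above background on all 16 arrays, with group means of up to 2.59 and 0.73, and were not called in the main fit. The Itgam difference between 3B3l-2i and J1-2i was -1.22 (adjusted p = 0.0521). It was called under another background correction, with quantile scaling and in some leave-one-out fits, but not with slide as a block. Itgal, the alpha chain of LFA-1, read -2.36, -3.18, -3.39 and -3.92 in J1-serum and -2.60, -1.74 and -1.73 in J1-2i, with 1 of 4 and 2 of 3 arrays well above background. It read -2.24 and -1.93 in TKO-serum, -2.43, -2.31 and -2.50 in TKO-2i, -2.42 and -2.54 in 3B3l-serum and -1.91 and -2.21 in 3B3l-2i. The called rise in J1 (1.19, adjusted p = 0.00593) overlapped between groups, and that in TKO-serum over J1-serum (1.12, adjusted p = 0.0205) did not. Without J1-serum replicate 4 they were 0.95 and 0.89, and a block for replicate number gave 0.95 and 0.85, none of them called. Itgb2, the beta chain common to leukocyte integrins, read -1.96, -1.66, -2.49 and -2.75 in J1-serum and -3.27, -2.59 and -4.04 in J1-2i, with 2 of 4 and 1 of 3 arrays above background, and its called difference of -1.09 (adjusted p = 0.0114) was -0.90 without J1-serum replicate 2 and -0.72 without J1-2i replicate 3, uncalled in both. The TKO arrays read -3.57 and -3.45 and -3.41, -3.72 and -3.83 in serum and 2i, none above background, and TKO-serum was at least 1.5-fold lower than J1-serum (adjusted p = 0.0109). This call was lost with slide as a block (-0.94), within slide 1 (-0.89), under another background correction (-0.91), and without TKO-serum replicate 1, and neither group was above background on all its arrays. In 3B3l, Itgb2 read -1.87 and -1.78 in serum and -2.48 and -2.83 in 2i. Of 12 leukocyte markers, 6 or 7 were well above background on all arrays of each group, their sum lay between 7.85 and 14.2 over all arrays, and Ptprc, which defines leukocytes, was above background on no array.

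The next question was how the chains differed between lines in the same medium. In serum, 10 of 23 members were called between TKO and J1, against 16.5% of all tested genes, with 8 lower (Itga2b, Itga7, Itgb1, Itgb2, Itgb4, Lama1, Lamb1 and Lamb2) and 2 higher (Itga9 and Itgal), against 8.74% and 7.76% of all genes. In that comparison 11 of 12 endoderm and 12 of 14 fibroblast markers were lower too, and their part was not tested. In 2i only Itga3 was called between TKO and J1, against 7.35% of all genes (3.55% lower and 3.8% higher), and that difference lay between groups of which neither was above background. Between 3B3l and J1 in serum, 6 of 23 were called against 19.3%, with Itga3, Itga8 and Itga9 higher (9.86% of all genes) and Itga2b, Lama1 and Lamb1 lower (9.43%). All 12 endoderm and 9 of 14 fibroblast markers were lower there too, and their part was not tested. In 2i, 7 of 23 were called between 3B3l and J1 against 14.4%, with Itga3, Itga5 and Itga9 higher (7.82% of all genes) and Itgav, Itgb1, Lama1 and Lamb2 lower (6.56%). Here Itga9 was below background in both groups, and with slide as a block 4 of 23 members were called, Itga9, Itgb1 and Lama1 of these 7 and Itga2b, while Itga3, Itga5, Itgav and Lamb2 were not. The median log2 difference of the members from J1 was -0.49 and -0.01 in TKO and 0.16 and 0.03 in 3B3l, in serum and 2i, beside 0.01, 0.05, 0.13 and 0.09 over all tested genes. All these comparisons use the same J1 arrays.

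**Figure D5:**
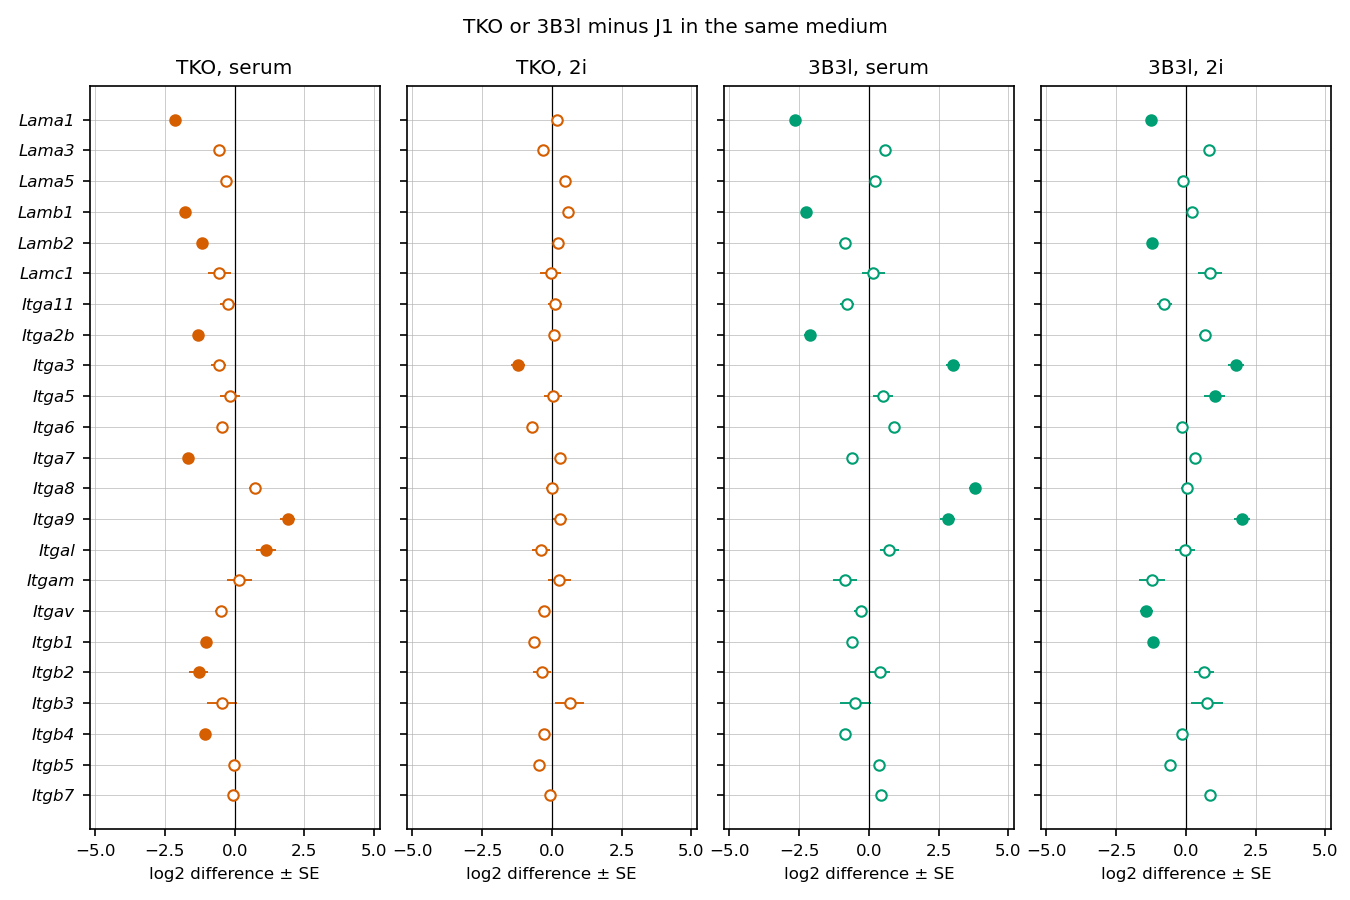
Log2 difference of TKO or 3B3l minus J1 in the same medium for the 23 tested members (points, with SE as bars; filled where called). Filled points are many in serum for TKO and a single one, Itga3, in 2i; Itga3 for TKO in 2i and Itga9 for 3B3l in 2i lie between groups below background.

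The responses themselves were compared too. For TKO against J1, 7 of 23 members differed in response, against 15.3% of all tested genes, with 5 above the response of J1 (Itga2b, Itga7, Lama1, Lamb1 and Lamb2; 7.76% of all genes) and 2 below it (Itga9 and Itgal; 7.51%). For 3B3l against J1, 7 of 23 differed, against 17.2%, with Itga2b, Lama1 and Lamb1 above the response of J1 (8.63% of all genes) and Itga3, Itga6, Itga8 and Itgav below it (8.59%). The Itgal difference (-1.51, adjusted p = 0.0331) was not called with the replicate number as a block (-1.24), without a filter on dim probes, under another background correction (-0.84) or in most fits without 1 of the J1 or TKO arrays. Under that correction Itga2b (0.96) and Itga9 (-0.33) were not called for TKO either, nor Itgav (-0.51) for 3B3l. For Itga2b, Itga3, Itga7, Itga8 and Itga9 at least 1 group was below background, so their response differences have no measured size. Both comparisons share the J1 arrays, and 4 rather than 7 were called for 3B3l without 3B3l-2i replicate 1. In TKO, 11 of 12 tested endoderm and 11 of 14 tested fibroblast markers were above the response of J1 too. For 3B3l the counts were 12 and 11, and the part of these markers was not tested.

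Molecules that work with the chains were read from lists of basement membrane partners, other integrin ligands and focal adhesion adaptors. Over all tested genes, 12.6%, 9.08% and 7.95% fell with 2i in J1, TKO and 3B3l and 10.1%, 6.72% and 5.62% rose. Of 12 tested basement membrane partners, 4 fell and 2 rose with 2i in J1, 4 fell and 1 rose in TKO, and 4 fell and 2 rose in 3B3l. The 4 that fell were the same in each line: Col4a1 and Col4a2, which encode the collagen IV network, Hspg2, which encodes perlecan, and Col18a1. Col18a1 differed by -3.81, -2.46 and -2.32 in J1, TKO and 3B3l, and Hspg2 by -1.05, -1.10 and -1.52. The Hspg2 call was lost in every line in at least 1 fit that left out an array. In TKO it hung on TKO-serum replicate 1 at 2.49, as replicate 2 read 0.99 and TKO-2i arrays 1.18, 0.45 and 0.29, and without replicate 1 the difference was -0.35. In J1 it was -0.95 with slide as a block and not called. Col4a1 was at least 105-fold lower in J1-2i, was -3.01 apart in TKO, where 1 of 3 TKO-2i arrays was above background, and was at least 9.41-fold lower in 3B3l-2i. Nid1, whose product nidogen-1 joins laminin to collagen IV, rose in all 3 lines by 1.25, 1.82 and 1.06, the last of which was 0.99 without 3B3l-serum replicate 1, 0.96 without 3B3l-2i replicate 2 and 0.95 under another background correction, each under 2-fold. Col4a1 and Col4a2 were also lower in TKO-serum (-3.35 and -3.78) and 3B3l-serum (-3.12 and -3.42) than in J1-serum, alongside the endoderm and fibroblast markers given above.

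Of 11 tested other ligands, 5, 3 and 3 fell with 2i in J1, TKO and 3B3l, and 0, 1 and 1 rose, the rises being near the share over all genes. Thbs1, for thrombospondin-1, and Ccn1, a matricellular ligand of alphav integrins, fell in all 3 lines. Ccn1 differed by -4.22, -1.14 (-0.99 without TKO-serum replicate 1, under 2-fold) and -3.25, and Thbs1 was at least 11.3-fold, 2.36-fold and 18.1-fold lower. Fn1, for fibronectin, differed by 0.65, 0.98 and 0.57 and was not called. Vcam1, the ligand of alpha4 and alpha9 integrins, was at least 5.14-fold lower in J1-2i than in J1-serum, and its bound against J1-serum was 5.58-fold lower for TKO-serum and 3.83-fold lower for 3B3l-serum. Most endoderm and fibroblast markers were lower in each of these comparisons too, as given above, and their part was not tested.

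Of 22 tested focal adhesion adaptors, 5, 2 and 4 fell with 2i in J1, TKO and 3B3l and none rose in this list, and the 2 in TKO are near the share over all genes. Zyx, for the stress-fibre protein zyxin, and Bcar1, for the docking protein p130Cas, fell in all 3 lines. The differences were -2.86, -2.67 and -2.46 for Zyx and -1.82, -1.76 and -1.60 for Bcar1. The talin gene Tln1 (0.03, 0.50 and -0.15) and the focal adhesion kinase gene Ptk2 (0.49, -0.37 and -0.11) were not called with 2i in any line. The median over the list was -0.15, -0.15 and -0.30, beside 0.05, 0.07 and 0.00 over all tested genes.

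The remaining members gave no call. Of the 23 tested, 7 were called in none of the 7 comparisons of 2 groups: Itga6, Itga11, Itgam, Itgb7, Lama3, Lama5 and Lamc1, with log2 differences from -1.22 to 0.90. Itga11, a collagen receptor chain, was above background on all J1-serum and TKO-serum arrays and at least 1.8-fold lower in J1-2i than in J1-serum by its bound, an uncalled difference. The 3 Itgam probes disagreed: 1 of the 2 that were not used as the gene's main probe was called higher against J1-2i for TKO-2i (1.08) and for 3B3l-2i (1.07), where the main probe gave 0.27 and -1.22. Among the main probes of the 23 members that of Itgam had the largest slide difference, -1.76 for slide 3, the slide of all 3B3l arrays. That value comes from J1-serum replicate 1 against the other J1-serum arrays, as no other group lay partly on slide 3. A further 10 members had a probe that did not meet the filter: Itga1, Itga2, Itga4, Itgax, Itgb6, Itgb8, Lama2, Lama4, Lamb3 and Lamc3. None of them was well above background on more than 4 of 16 arrays. Lamb3, a chain of epithelial laminins singled out after its values were seen, was above background on 3 arrays, all of J1-serum.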

How the data were processed

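Total RNA of mESCs was hybridised to one-colour Agilent 8x60K arrays. The authors deposited scanner files read with Agilent Feature Extraction 11.5.1.1, with background-subtracted signal as an intensity, raw median and background intensity, and flags of 0 or 1. Log2 values of 30170 probes, deposited as a table, were used as an alternative. In 13 of its 16 columns the best match among the arrays was another replicate of the same group. Here, log2 processed signal minus the 75th percentile of the array was used, without outlier spots and with the spots of a probe averaged. An array measured a probe when 50% or more of its spots were flagged well above background, and a probe was tested when all arrays of 1 or more groups measured it (27126 probes, 13917 named genes). A gene was read through its tested probe with the highest mean. Probes were named through RefSeq accessions (GRCm38.p6). Promoters came from a table of RefSeq promoters, in which 23 of the 35 members were matched.

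One model of 6 group means over all 16 arrays was fitted with limma 3.58.1 (R 4.3.3), with two-sided tests and Benjamini-Hochberg adjustment over all tested probes. The fit was tested on simulated data. A call needed an adjusted p no higher than 0.05 and a 2-fold difference, and members called in at least 1 of the 7 comparisons of 2 groups are given with every array. A group not well above background on any array gives a bound ("at least"), against the lowest signal well above background. Members, gene lists and tests were chosen with earlier results of these data known. No member probe was saturated. The number of arrays limits the precision. Alternatives were background correction (normexp), quantile or median scaling, the authors' table, filters on dim probes, no fold limit, any probe, replicate number or slide as a block, single slides, a t-test in place of limma and leaving out each array. For differential expression on its arrays the paper used limma with Benjamini-Hochberg adjustment. Within slide 3, and groups above background only, were chosen after seeing the data.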

Additional observations from a re-analysis of the deposited data

Results flagged for a closer look

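On the J1-serum arrays, 5 tested members had 1 array apart from the other 3, by the gap to the nearest array as a share of the group's whole range. Such a gap arises by chance in about 1 in 20 groups. No count over all tested genes is given beside it, so the 5 are not read as particular to these members. The share was 0.864 for Itga5, 0.854 for Itgb4, 0.983 for Lamb2 and 0.861 for Lamc1, in each case with replicate 1 apart, and 0.843 for Itgav, with replicate 4 apart. Replicate 1 was the only J1-serum array on slide 3.

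Responses to 2i that differed from that of J1 by the interaction test, in log2 units, are as follows. In TKO the difference was 2.34 for Lamb1, 2.32 for Lama1, 1.96 for Itga7, 1.39 for Lamb2, 1.38 for Itga2b, -1.51 for Itgal and -1.62 for Itga9. In 3B3l it was 2.78 for Itga2b, 2.49 for Lamb1, 1.38 for Lama1, -1.06 for Itga6, -1.12 for Itgav, -1.22 for Itga3 and -3.76 for Itga8. For Itga2b, Itga3, Itga7, Itga8 and Itga9 at least 1 of the groups behind these values was not well above background, so these values are no measured sizes. The Itgal and Itga3 differences were not called with the replicate number as a block or without a filter on dim probes. Most endoderm and fibroblast markers were also above the response of J1 in both lines, as were Lama1 and Lamb1, and their part was not tested.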

How the results depend on the processing

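No called difference of a named member changed direction in any alternative. Of 264 member counts under the alternatives, 241 stayed within 1.5 times the reported count. Without the fold limit 14 members were called with 2i in J1 and 12 in TKO, 6 and 12 for TKO and 3B3l against J1 in 2i, 15 for 3B3l against J1 in serum, and 11 for the 3B3l response against that of J1. With probes above background on all 16 arrays the counts with 2i were 2, 2 and 3 in J1, TKO and 3B3l, 5 and 0 for TKO against J1 in serum and 2i, 2 for 3B3l against J1 in serum, and 3 and 4 for the TKO and 3B3l responses; fewer genes are tested there. With normexp, 4 were called for TKO against J1 in serum, 0 in 2i and 4 for the TKO response. For TKO against J1 in 2i, 2 were called with any probe and 0 where a group was above background. With slide as a block, 4 were called for 3B3l against J1 in 2i. A t-test in place of limma, after Benjamini-Hochberg adjustment, gave 5 with 2i in J1 and 1 in 3B3l. The cause of these shifts was otherwise not tested. Leaving out 1 array gave 7 to 8, 5 to 7 and 6 to 8 with 2i in J1, TKO and 3B3l, 9 to 10 and 1 to 1 for TKO against J1 in serum and 2i, 6 to 8 and 6 to 8 for 3B3l, and 6 to 8 and 4 to 8 for the TKO and 3B3l responses. Deviations of same-numbered arrays from their group means had correlations from -0.13 to 0.29, the highest between the 3B3l groups. Between those groups, with 2 arrays each, both values are equal by construction. With so few arrays this check cannot decide whether the numbers pair samples, and the main fit did not use them as pairs. With the replicate block the counts were 8, 5 and 7 with 2i, 9 and 1 for TKO against J1, 6 and 6 for 3B3l, and 7 and 7 for the responses. The called responses held Itgb2 in place of Itgal for TKO and Itga7 in place of Itga3 for 3B3l. Among the 8 with 2i in J1, Itga11 then stood in place of Itgal, which was also lost for TKO against J1 in serum.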
